A study of Homo sapiens with 42 samples.

Results

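The genes described here were those whose signal was near normal one day after an shRNA against BMI1 was switched on, and clearly lower a day later. The members were chosen by the measured signals. A probe set, the group of short probes that reads 1 transcript on the array, entered this late-falling set by 4 conditions. It had a single gene symbol and a mean signal of at least 100 in the undosed Bmi1-shRNA line at 24, 32 and 48 h. Its ratio of group means, doxycycline over no doxycycline in that line, was at least 0.9 at 24 h and at most 0.75 at 48 h, and every dosed 48 h array read below every undosed one. Its 48 h ratio in the Ctl-shRNA line lay between 0.85 and 1.18. Genes of the mitochondrial ribosome, complex I, ATP synthase, proteasome and histone families were left out, which removed 4 probe sets (PSMD12, MRPS14, ATP5MG and MRPS10). The conditions kept 115 probe sets of 108 genes, out of 54675 probe sets on the array, 41091 with a single symbol and 12651 of those at or above the signal floor.

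The cells were RPMI-8226, an established human multiple myeloma line, which is a tumour line of antibody-secreting plasma cells. Lines stably carrying an inducible hairpin, either Bmi1-shRNA or Ctl-shRNA, were left undosed or were given doxycycline at 100 ng/ml, and RNA was taken at 24, 32 and 48 h and, without doxycycline, at 0 h, with 3 arrays in each of 14 groups. Every cell studied therefore carried a hairpin, 1 per target, and the Ctl-shRNA line with doxycycline is the comparison for the drug and for hairpin expression. For Bmi1-shRNA at 0 h the labels contradict each other on drug and line, and those arrays entered no comparison. The labels do not say whether the 3 arrays of a group came from separate cultures, so p-values measure the spread between these arrays, which may be technical, nor whether a line is a clone or a pool.

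BMI1 is a subunit of Polycomb repressive complex 1, which places ubiquitin on histone H2A and keeps developmental and cell cycle inhibitor genes silent. It is known in blood-forming cells and in lymphoid and plasma cell tumours for supporting proliferation and self-renewal.

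The BMI1 probe set, which is annotated to BMI1 and the COMMD3-BMI1 readthrough transcript, checked the hairpin. In the Bmi1-shRNA line it read 927 ± 154 without and 207 ± 34.1 with doxycycline at 24 h, and 1021 ± 125 without and 159 ± 25.6 with doxycycline at 48 h (SD, n = 3). BMI1 was thus already low at 24 h, when the late-falling set was near its undosed level. At 32 h its log2 difference was -2.52 ± 0.10 (SE, limma, Benjamini-Hochberg adjusted p = 2.26e-20). Of 17 plasma cell genes 12 reached a signal of 100. The summed signal of the 17 in the Bmi1-shRNA line was 32953 undosed and 36530 dosed at 48 h. At 32 h it was 33799 undosed and 31841 dosed, the other direction. None of the 7 T cell and 7 monocyte markers reached 100, while 1 of 3 erythroid, 1 of 6 fibroblast and 3 of 6 epithelial markers did. The ratio of the 3' to the 5' GAPDH probes was 0.906 to 0.975 over the 12 arrays of the Bmi1-shRNA line at 24 and 48 h. At 32 h it was 0.926 to 0.957 undosed and 0.8825 to 0.944 dosed. Dosed replicates 2 and 3, at 0.8831 and 0.8825, lay below every undosed 32 h array, and the part of this in the 32 h results was not tested. The same ratio for ACTB was 1.12 to 1.14 undosed and 1.16 to 1.18 dosed at 24 h, without overlap, 1.12 to 1.16 undosed and 1.12 to 1.204 dosed at 32 h, and 1.17 to 1.21 undosed and 1.19 to 1.22 dosed at 48 h, with overlap at both later times, and its part in the results was not tested. Each array measures a bulk RNA pool, in which fewer cells of a type and less RNA per cell cannot be told apart.

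The rule fixes the 24 h and 48 h differences, so they are given as a description with no test. Over the 115 probe sets the median ratio of dosed to undosed means in the Bmi1-shRNA line was 0.953 at 24 h, 0.850 at 32 h and 0.700 at 48 h. The median over all 12651 probe sets at the floor was 1.00, 1.01 and 1.01 at these times. In the Ctl-shRNA line the medians of the set were 1.01, 0.979 and 1.00. Most members were thus a little below their undosed level at 24 h, further below at 32 h and lowest at 48 h.

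"Late" here means late by a bound and not unmoved at 24 h. The 24 h ratio was below 1 in 81 of the 115 probe sets, and 55 of them lay between 0.90 and 0.95. Of the probe sets at the floor 3.87% had a 48 h ratio of at most 0.75 with no overlap at 48 h. Before the 24 h bound was applied, 447 probe sets met the other conditions, and 328 of them were already below 0.9 at 24 h. The late-falling set is therefore the smaller part of a larger group, and the 24 h bound alone sets it apart from the rest. At the 24 h bound LOC730101 stood just inside at 0.9001 and the helicase gene DHX33 just outside at 0.8993, and at the 48 h bound CCDC59 stood inside at 0.7487 and TMEM237 outside at 0.7501. The control-line bounds fell between ATPAF2 at 0.8549 and EIF2S2 at 0.84998, and between ARID2 at 1.170 and DNAJA2 at 1.181, and the floor between ATP9B at 100.8 and GOLGA3 at 99.2.

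The 48 h ratio had 2 parts, a lower signal with doxycycline and a higher one without it. From 24 to 48 h the median member read 0.799 times its 24 h level in dosed cells and 1.12 times that level in undosed cells, against 0.996 and 1.00 over the 12651 probe sets. The dosed mean was lower at 48 than at 24 h in 114 members, and the undosed mean was higher in 103. Set against the undosed 24 and 32 h arrays instead of those of 48 h, the dosed 48 h mean was lower in 114 members, by a median ratio of 0.759, and at or below 0.75 in 51. The rule used these undosed arrays and favours members low at 24 h and high at 48 h there, so this rise is a description from which nothing is read.

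**Figure D1:**
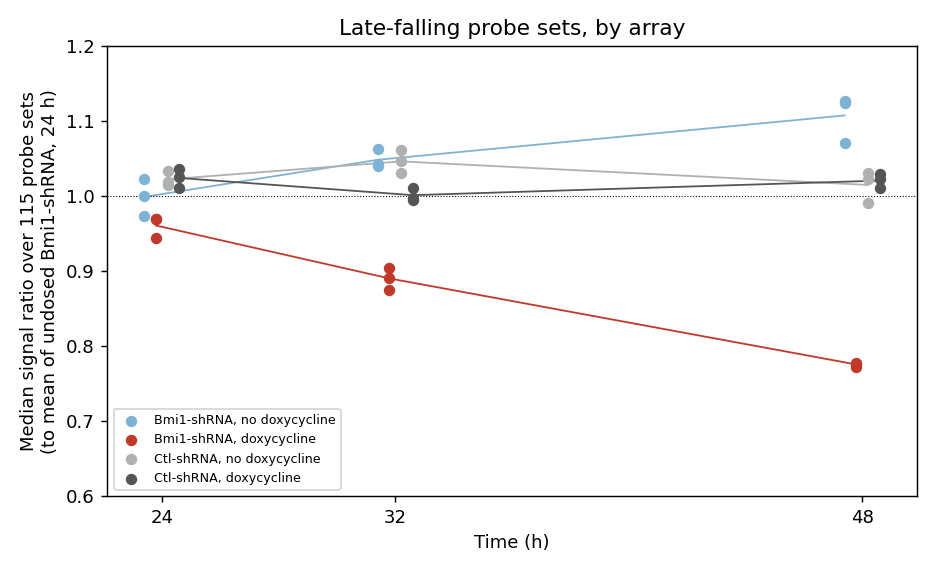
Median over the 115 late-falling probe sets of each array's signal divided by the mean undosed Bmi1-shRNA signal at 24 h, plotted against time (h). Each point is 1 array and lines join group means: dosed Bmi1-shRNA arrays lie at 0.772 to 0.778 at 48 h, undosed ones at 1.07 to 1.13, and all Ctl-shRNA arrays, with or without doxycycline, at 0.991 to 1.06.

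Relative to the mean undosed 24 h signal, the median member read 0.944, 0.969 and 0.970 on the dosed arrays at 24 h, 0.891, 0.875 and 0.905 at 32 h, and 0.772, 0.778 and 0.776 at 48 h. The undosed arrays read 1.00, 0.974 and 1.02 at 24 h, 1.06, 1.04 and 1.04 at 32 h, and 1.07, 1.13 and 1.12 at 48 h. The rule fixed the separation at 48 h. At 24 h it bounded the ratio from below, and at 32 h it used only the undosed arrays, for the floor. The dosed and undosed medians overlapped at neither of these times, with a small gap at 24 h (0.970 against 0.974). Applied with no bound on the other line, the same 24 and 48 h conditions kept 130 of 12651 probe sets in the Bmi1-shRNA line and 7 of 12561 in the Ctl-shRNA line. The Bmi1-shRNA count comes from the values that chose the members, so the pair is a description and no test between the lines.

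The 32 h time point lay outside the rule, except that the floor used its undosed arrays, and it answers whether the members were already lower between the 2 times the rule used. At 32 h the ratio lay between those of 24 and 48 h in 95 of the 115 probe sets. The rule set these 2 end ratios apart, so that count is a description from which nothing is read. The 32 h ratio itself was at or below 0.75 in 14, between 0.75 and 0.9 in 63, between 0.9 and 1 in 22, and above 1 in 16. Of the 12651 probe sets at the floor 286 were at or below 0.75 and 1583 below 0.9 at that time. Every dosed 32 h array read below every undosed 32 h array in 57 members, where 8.96% of the 12651 probe sets at the floor did so.

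In the limma fit over 35235 probe sets, with Benjamini-Hochberg adjustment and a threshold of 0.05, 19 members (16.5%) were lower with doxycycline at 32 h and 0 were higher. Of all probe sets at the floor 2.77% were called lower and 0.53% higher, and of all those tested 1.13% and 0.247%. At an unadjusted p under 0.05, 64 members were lower and 0 higher. The share of all probe sets under that unadjusted bound was not computed, so nothing is read from this or later unadjusted counts. The median log2 difference was -0.23 over the members, with 99 below 0, and 0.01 over the probe sets at the floor. Leaving out 1 array moved the count: 10 members were called without undosed replicate 3, and 11 without dosed replicate 1 or without dosed replicate 2. The main fit took its spread from all 14 groups, those of the rule included. The rule asked for no overlap between arrays, which favours probe sets with little spread in its groups. The p-values of members at 32 h, here and below, are therefore not independent of how the members were chosen. A fit to the 6 arrays of this comparison alone called 4 members, and 220 of all probe sets against 486 in the main fit. GFPT1, OTUD6B and the lowest of 3 TMEM106B probe sets kept their call without any single array and under every other setting in which they were tested.

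**Figure D2:**
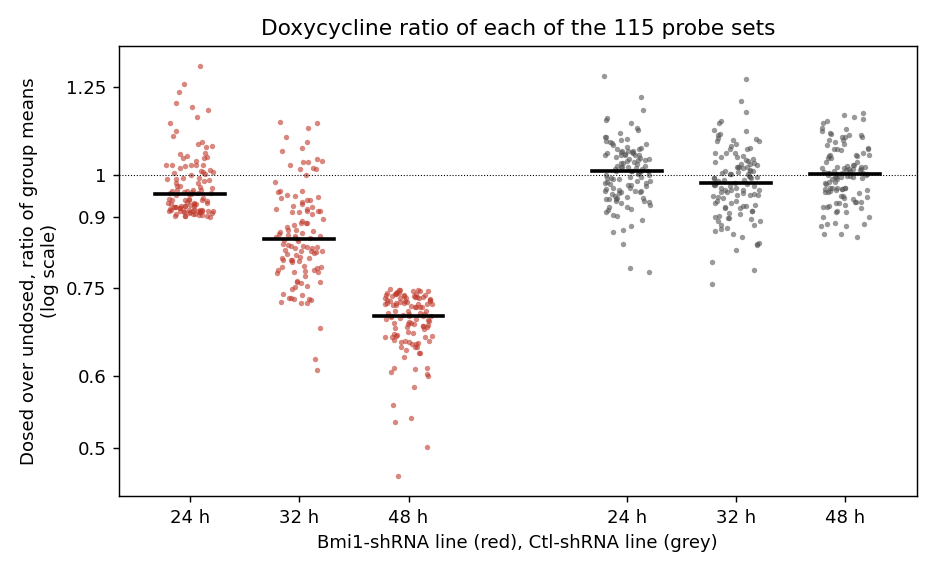
Ratio of the dosed to the undosed group mean of each of the 115 late-falling probe sets (points, log scale) at 24, 32 and 48 h in the Bmi1-shRNA line (red) and the Ctl-shRNA line (grey), with the median as a bar. The Bmi1-shRNA medians are 0.953, 0.850 and 0.700, and the rule sets the edges at 0.9 at 24 h and at 0.75 at 48 h, while at 32 h 16 points lie above 1.

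Sugar chain synthesis held the member with the smallest adjusted p at 32 h. GFPT1 makes the first and rate-limiting step of the hexosamine pathway, which supplies the sugar donor for glycosylation. Its probe set read 120.1, 121.3 and 121.1 undosed and 109.9, 119.8 and 110.8 dosed at 24 h, then 135.5, 142.6 and 161.7 against 90.5, 98.5 and 86.8 at 32 h, and 144.4, 138.6 and 145.5 against 89.4, 78.3 and 94.1 at 48 h. The groups were adjacent at 24 h and far apart at both later times, so most of its difference was in place by 32 h (log2 difference -0.64 ± 0.10 SE, limma adjusted p = 3.17e-05). Its 3 other probe sets at the floor had 48 h ratios of 0.515, 0.880 and 0.987, and the lowest of them was already at 0.744 at 24 h. HS2ST1, which adds sulfate to heparan sulfate chains, also fell at 32 h by 0.30 on the log2 scale (adjusted p = 0.0462), a call lost in 5 of the 6 fits that left out 1 array. The other 3 members of this group, GALNT7, GXYLT1 and B4GALT1, which add sugars to proteins, did not pass at 32 h, with ratios of 0.905, 1.02 and 1.13. Only DECR2 and POP1 had higher 32 h ratios than B4GALT1, and its 48 h ratio was 0.723.

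Membrane traffic was the largest role among the members, with 14 genes and 16 probe sets whose 48 h ratios ran from 0.583 to 0.741. The roles were assigned after the values had been seen and are used only to order the text, and 85 of the 108 genes were placed in 14 of them. SEC11C is a catalytic subunit of the signal peptidase, which trims proteins entering the endoplasmic reticulum. Its member probe set read 142.6, 133.6 and 135.4 undosed and 71.0, 75.5 and 93.5 dosed at 48 h, without overlap. The brighter SEC11C probe set, at 3875 undosed, had a 48 h ratio of 0.895, so the size of the difference depended on which one was read. TMEM87B, a Golgi membrane protein, had 2 member probe sets at 0.663 and 0.678, and 1 of them fell at 32 h (log2 -0.46, adjusted p = 0.00658). SORL1, a receptor that sorts cargo between endosomes and the Golgi, also had 2, at 0.663 and 0.666, with 32 h ratios of 0.763 and 0.731 that did not pass.

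AVL9, a protein of late secretory traffic, read 459.8, 457.8 and 428.3 undosed and 329.1, 383.6 and 338.0 dosed at 32 h, with no overlap (log2 -0.35 ± 0.07 SE, limma adjusted p = 0.000803). Its 48 h ratio was 0.729. TMED4, a cargo receptor of the early secretory path and 1 of the brightest members, behaved otherwise. It read 1048.9, 890.2 and 885.0 undosed and 938.7, 1020.6 and 937.6 dosed at 32 h, where the groups overlapped, and 1294.2, 1070.2 and 1262.2 against 901.5, 1021.2 and 626.3 at 48 h. Its dosed 48 h arrays were widely spread, and its 2 other probe sets at the floor had 48 h ratios of 1.02 and 1.07.

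TMEM106B, a lysosomal membrane protein known for its link to lysosome size and acidity, was the only gene with 3 member probe sets. Their 48 h ratios were 0.557, 0.654 and 0.668. On the lowest of them the arrays read 332.6, 278.6 and 309.5 undosed and 259.9, 289.4 and 293.1 dosed at 24 h, then 307.6, 326.6 and 325.6 against 238.3, 220.2 and 240.9 at 32 h, and 316.3, 350.0 and 357.8 against 185.5, 183.8 and 201.5 at 48 h. The groups overlapped at 24 h, separated by 32 h and were widest apart at 48 h. Only this probe set of the 3 passed at 32 h (log2 -0.45 ± 0.08 SE, limma adjusted p = 0.000246). ATP6V0E1 and ATP6V0E2, small subunits of the proton pump that acidifies lysosomes, had 48 h ratios of 0.636 and 0.694. The 3 other ATP6V0E1 probe sets at the floor, all brighter, read 0.657 to 0.660 at 48 h and were already at 0.664 to 0.744 at 24 h, so at the floor this gene was late on 1 probe set and early on 3.

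Protein folding, ubiquitin and proteolysis held 7 genes. The roles were given to members with their values known. At 32 h 4 of the 7 fell, where 19 of all 115 members and 2.77% of the probe sets at the floor did. OTUD6B, a deubiquitinase, read 559.2, 613.7 and 648.4 undosed and 291.5, 369.1 and 450.0 dosed at 32 h, and 470.1, 547.6 and 536.6 against 351.9, 375.4 and 410.2 at 48 h. It had the lowest 32 h ratio of all members, 0.610 (log2 -0.72 ± 0.12 SE, limma adjusted p = 0.000239), and a higher ratio of 0.732 at 48 h. CAST encodes calpastatin, the inhibitor of calpain proteases, and its member probe set read 1441.5, 1354.3 and 1377.9 undosed and 1191.3, 1199.1 and 1198.6 dosed at 32 h, then 1430.1, 1393.3 and 1408.7 against 955.4, 1025.2 and 982.3 at 48 h. Its dosed replicates lay within a few units of each other at 32 h, and a difference of -0.22 at 32 h on the log2 scale passed (adjusted p = 0.00459). ERAP1, the aminopeptidase of the endoplasmic reticulum that trims peptides for presentation, fell by 0.33 (adjusted p = 0.00442), and DNAJB14, a chaperone of that membrane, fell by 0.45 (adjusted p = 0.0319), a call lost in each of the 6 fits that left out 1 array. The 2 other CAST probe sets at the floor had 48 h ratios of 0.886 and 0.956, and the other ERAP1 probe set 0.871.

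**Figure D3:**
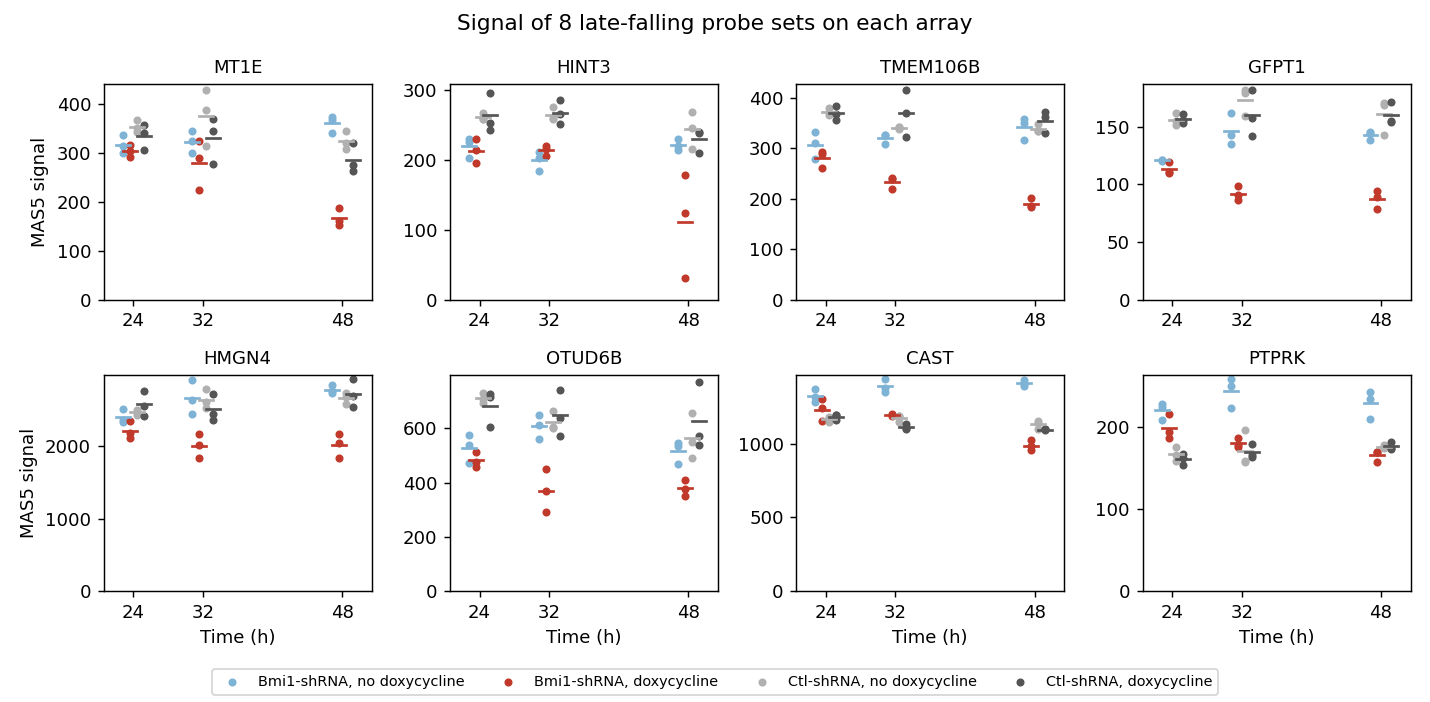
MAS5 signal (linear, axis from 0) of 8 late-falling probe sets on each array at 24, 32 and 48 h, with dots for arrays and bars for group means, in both lines with and without doxycycline. MT1E and HINT3 separate at 48 h only, GFPT1, OTUD6B, TMEM106B, HMGN4, CAST and PTPRK are apart at 32 h too, and 1 dosed HINT3 array at 48 h reads 30.5.

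Metallothioneins, small proteins that bind zinc and copper, held the lowest 48 h ratio of the set. The MT1E member probe set read 314.9, 300.0 and 337.7 undosed and 291.8, 315.7 and 303.5 dosed at 24 h, and 340.1, 373.2 and 368.7 against 161.7, 153.7 and 188.4 at 48 h. The groups overlapped at 24 h and not at 48 h, where the ratio was 0.466, with means of 361 ± 18.0 undosed and 168 ± 18.2 dosed (SD, n = 3). In the Ctl-shRNA line at 48 h it read 307.6, 320.0 and 344.2 undosed and 275.1, 320.8 and 263.4 dosed, a ratio of 0.884. MT1H read 654.4, 674.1 and 674.2 against 360.7, 425.7 and 427.0 at 48 h, and MT1G 724.6, 871.1 and 745.6 against 634.6, 463.0 and 443.7, ratios of 0.606 and 0.658. None of the 3 passed at 32 h, with adjusted p-values of 0.598, 0.127 and 0.815.

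The related metallothioneins were not all late. MT2A read 1110 undosed and 595 dosed at 48 h, a ratio of 0.536, but was at 0.821 at 24 h, and its 48 h ratio in the Ctl-shRNA line was 0.822. The 2 MT1X probe sets were at 0.623 and 0.595 at 48 h and at 0.799 and 0.821 at 24 h. A second MT1E probe set was at 0.607 at 48 h and 0.895 at 24 h, just outside the 24 h bound. These probe sets carry the suffix that marks probes which may also bind other sequences. The assignment of the signal to single metallothionein genes is therefore uncertain.

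The bases before the MT1H start are shown because metal response elements, the sites of the zinc-sensing factor MTF1, are textbook features of this family. The sequence is from RefSeq (GRCh38.p14, plus strand, chr16:56669664-56669813), and capitals mark 5 matches on either strand to TGCACNC or TGCGCNC, which overlap in letters with the NRF1 motif TGCGCA.
MT1H: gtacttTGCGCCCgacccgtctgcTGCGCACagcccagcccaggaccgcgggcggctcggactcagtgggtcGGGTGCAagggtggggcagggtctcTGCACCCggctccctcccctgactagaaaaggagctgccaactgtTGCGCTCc
The motif was searched after the values had been seen. A match in any listed promoter was present in 46.1% of the 89 member genes with a promoter in the table (250 bases before to 50 after the start), in 29.6% of all 35116 promoters and in 47.3% of the 6569 genes at the signal floor, so the short motif was no more frequent in the members than in other expressed genes.

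Stress and cell death genes were few. SESN3, a sestrin that restrains the growth kinase complex mTORC1, read 166.6, 157.9 and 174.3 undosed and 98.5, 78.5 and 89.2 dosed at 48 h. Its undosed signal was 100.9, 124.5 and 100.5 at 24 h, so at 48 h the undosed arrays were well above their own first-day level and the dosed arrays a little below it. At 32 h its ratio was 0.678, but the replicates were spread and the difference did not pass (adjusted p = 0.123). PAWR, a pro-apoptotic protein, had 2 member probe sets at 0.651 and 0.664. On the brighter one the arrays read 674.3, 720.7 and 715.1 undosed and 474.1, 484.2 and 443.3 dosed at 48 h. A further PAWR probe set was at 0.722 at 48 h and already at 0.867 at 24 h. The others at the floor were at 0.7725 and 0.803 at 48 h.

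Among lipid and peroxisome enzymes, ALDH3A2, which oxidises fatty aldehydes, read 245.6, 205.3 and 205.7 undosed and 226.6, 223.4 and 163.5 dosed at 32 h, with overlap, and 282.3, 253.0 and 236.0 against 149.8, 134.5 and 131.6 at 48 h. This made it 1 of the latest on its member probe set, at 0.934 at 32 h and 0.539 at 48 h. A brighter probe set of the same gene had the same ratio of 0.539 at 48 h and 0.753 at 24 h. DECR2, a peroxisomal reductase of fatty acid breakdown, had the highest 32 h ratio of the set, 1.14. It read 107.9, 125.0 and 123.8 undosed at 24 h and 292.2, 243.7 and 187.6 at 48 h, while the dosed arrays read 193.5, 121.8 and 155.0 and then 152.6, 139.9 and 175.1. At its 48 h ratio of 0.646 the undosed arrays were above their 24 h signal and the dosed arrays near theirs. ERG28, a scaffold of sterol synthesis, fell by 0.31 at 32 h (adjusted p = 0.0357), which was lost in 5 of the 6 fits that left out 1 array.

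In RNA processing and ribosome assembly, DCP2, the enzyme that removes the cap from messenger RNA before decay, was 1 of the brightest and lowest members. It read 833.5, 874.5 and 932.8 undosed and 707.2, 912.1 and 797.7 dosed at 24 h, then 854.6, 771.0 and 808.8 against 722.0, 652.5 and 625.4 at 32 h, and 916.9, 957.4 and 871.3 against 611.3, 528.4 and 505.9 at 48 h. The groups overlapped at 24 h, were adjacent at 32 h (log2 -0.28, adjusted p = 0.0367, lost in 4 of the 6 fits that left out 1 array) and were well apart at 48 h. A dimmer DCP2 probe set was at 0.612 at 48 h and already at 0.766 at 24 h. Another DCP2 probe set at the floor was at 0.923 at 48 h, with overlap. POP1, a protein of RNase P and RNase MRP, read 137.2, 120.1 and 109.6 undosed and 131.4, 157.8 and 129.4 dosed at 32 h and 143.9, 143.4 and 144.1 against 110.6, 100.5 and 106.3 at 48 h, so its groups overlapped until the last time point. HEATR1, of ribosomal RNA transcription and processing, was at 0.699 at 48 h on its member probe set and at 1.02, 1.00 and 1.34 on its 3 other probe sets at the floor.

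Chromatin and transcription held 9 genes, all below 1 at 32 h. HMGN4, a nucleosome-binding protein, was the brightest member and had 2 member probe sets. The brighter read 2514.8, 2333.8 and 2354.4 undosed and 2182.5, 2341.2 and 2108.6 dosed at 24 h, then 2633.8, 2445.0 and 2908.9 against 1837.0, 2021.1 and 2163.3 at 32 h, and 2731.3, 2763.5 and 2842.4 against 2043.2, 2162.6 and 1837.2 at 48 h. It fell by 0.41 at 32 h (limma adjusted p = 0.000192), and the other did not pass (log2 -0.29, adjusted p = 0.0849). The remaining HMGN4 probe set was at 0.703 at 48 h and just under the bound, at 0.892, at 24 h. ZBTB21, a zinc finger repressor, read 410.6, 438.2 and 426.4 undosed and 318.7, 347.6 and 342.5 dosed at 32 h and had a 48 h ratio of 0.737. Its dosed and undosed arrays did not overlap at 32 h (log2 -0.33 ± 0.07 SE, limma adjusted p = 0.00183). A brighter ZBTB21 probe set, at 636 undosed at 48 h, had a 48 h ratio of 0.843.

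Receptors, ligands and signalling enzymes were 10 genes with 48 h ratios of 0.604 to 0.737. PTPRK, a receptor tyrosine phosphatase, read 250.8, 224.1 and 258.4 undosed and 178.2, 175.6 and 187.0 dosed at 32 h and 243.6, 235.0 and 210.5 against 158.2, 170.4 and 169.6 at 48 h, and fell at 32 h by 0.43 (adjusted p = 0.00144). IFNAR1, a chain of the type I interferon receptor, read 127.9, 111.5 and 120.9 undosed and 54.0, 102.1 and 61.4 dosed at 48 h, with 1 dosed array close to the undosed ones. DUSP22, a phosphatase of the JNK pathway, was the second brightest member, at 1922.5, 1750.3 and 1981.1 undosed and 1379.7, 1345.5 and 1218.4 dosed at 48 h. Its 32 h ratio of 0.852 did not pass (adjusted p = 0.248), and its other probe set at the floor had a 48 h ratio of 0.997. C3AR1, the receptor of the complement fragment C3a, read 246.3, 211.4 and 251.6 against 151.5, 186.9 and 161.4 at 48 h.

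Mitosis and the cytoskeleton gave 7 genes. AURKA, the spindle pole kinase of mitosis, read 963.0, 1015.6 and 965.5 undosed and 827.9, 647.0 and 839.1 dosed at 32 h and 864.8, 880.2 and 936.2 against 606.4, 547.8 and 708.3 at 48 h. It fell at 32 h by 0.35 (adjusted p = 0.0452), a call lost in 4 of the 6 fits that left out 1 array. The second AURKA probe set was similar at 48 h, at 0.707, and lower at 24 h, at 0.816 against 0.914. RRM2B, a ribonucleotide reductase subunit induced by p53, read 570.7, 586.5 and 545.8 undosed and 408.1, 409.3 and 462.7 dosed at 32 h (log2 -0.41, adjusted p = 0.00631). It was 1 of 3 genes of nucleotide supply, replication and repair, beside NABP1 and MCMBP, with 48 h ratios of 0.715 to 0.739.

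Mitochondrial genes outside the excluded families numbered 6. SLC25A24, a carrier of adenine nucleotides across the inner membrane, read 1138.9, 1001.5 and 1163.1 undosed and 825.0, 861.0 and 974.5 dosed at 32 h, just short of the threshold (adjusted p = 0.0551), and 1159.3, 992.0 and 1250.1 against 770.8, 919.3 and 832.3 at 48 h. TUFM, the mitochondrial elongation factor, was a member on a dim probe set at 0.718, and its main probe set, at 5025 undosed, read 1.00 at 48 h. TUFM is thus no clear case of a late fall. ATPAF1 and ATPAF2, assembly factors of the ATP synthase, were at 0.748 and 0.707. The kynurenine pathway of tryptophan breakdown gave KMO with 2 probe sets, at 0.671 and 0.685, and KYAT1 at 0.721. On the brighter KMO probe set the undosed arrays read 103.9, 108.5 and 129.2 at 24 h and 161.9, 148.0 and 139.3 at 48 h, and the dosed arrays 117.3, 108.2 and 102.8 and then 110.9, 92.4 and 104.2. On this probe set the undosed mean was 1.32 and the dosed mean 0.937 times its 24 h level, while on the other the values were 1.22 and 0.794, so the 2 disagree on which part was larger.

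HINT3, HAPSTR1 and ITPRID2 completed the 12 lowest 48 h ratios. HINT3, a nucleotide hydrolase, read 214.1, 220.3 and 230.1 undosed and 124.4, 178.3 and 30.5 dosed at 48 h, so its ratio of 0.501 leans on 1 low array. At 32 h it read 212.0, 184.7 and 202.8 against 220.8, 216.0 and 206.3, with no lower signal. HAPSTR1, a nuclear stress response protein, read 304.3, 362.0 and 329.2 against 223.7, 234.0 and 151.2 at 48 h. Its 4 other probe sets at the floor had 48 h ratios of 0.904 to 1.15. ITPRID2, which binds inositol trisphosphate receptors, read 189.2, 158.8 and 161.1 against 96.0, 100.5 and 115.5. A brighter ITPRID2 probe set, at 226 undosed, had a 48 h ratio of 0.990, with overlap. Of the members given no role, SERINC5, RBBP9 and PCBD1 fell at 32 h by 0.43, 0.40 and 0.29 on the log2 scale, and those calls were lost in 2, 4 and 5 of the 6 fits that left out 1 array. The calls of ERAP1, RRM2B and TMEM87B were lost in 2 of the 6 and that of CAST in 1.

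Other probe sets of the same genes are those that did not meet the rule. Any that met it were members, as in the 6 genes with several member probe sets. The rest thus lack late falls by construction and cannot test how far the late fall belongs to the gene. They are described without a test. The 108 genes had 210 further probe sets, 95 of them at the floor and covering 61 genes. The median 48 h ratio of the 95 was 0.886, and it was 0.953 at 24 h and 0.889 at 32 h. It was below 1 in 75 and at or below 0.75 in 22, where 4.06% of the 12651 probe sets at the floor were at or below 0.75. Of those 22, 19 probe sets of 16 genes were already below 0.9 at 24 h, ALDH3A2, ARID2, ATP6V0E1 and GFPT1 among them. The rule largely fixed this, since a probe set at or above 0.9 that met the other conditions would have been a member. In 11 genes every other probe set at the floor was at or below 0.75, and in 8 genes every one was at or above 1. The member probe set was not the brightest of its gene in 37 of the 61 genes. A lower signal at 48 h was thus common on other probe sets, and its size varied with the probe set. How far its lateness varied cannot be read from these counts.

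**Figure D4:**
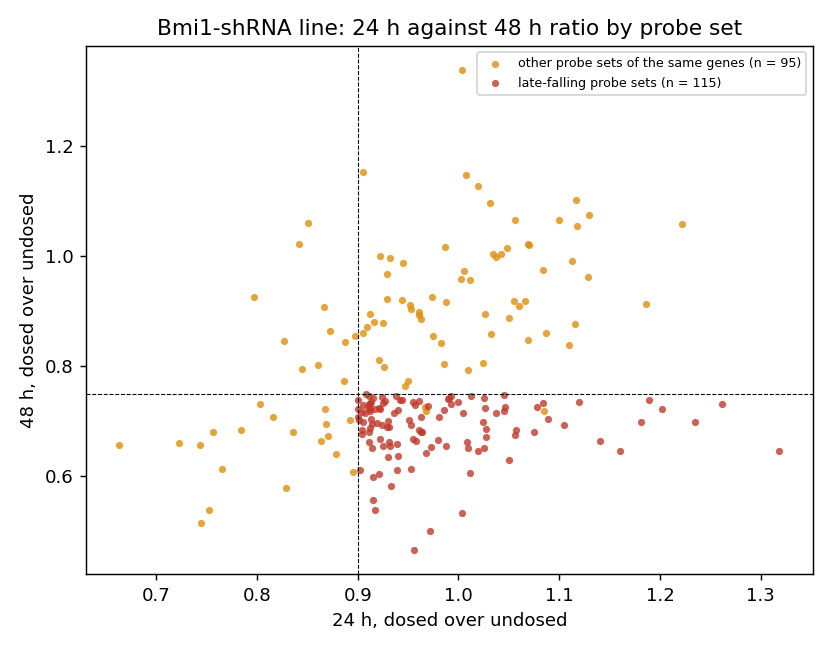
Dosed over undosed ratio of group means at 24 h (x axis) and 48 h (y axis) in the Bmi1-shRNA line, for the 115 late-falling probe sets (red) and the 95 other probe sets of the same genes at the floor (orange), with dashed lines at the bounds of 0.9 and 0.75. The red points fill the lower right corner by the rule, which leaves there only orange points that fail another condition. Of the orange points 19 lie below both bounds, and the median orange 48 h ratio is 0.886.

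The comparison between lines at 32 h asks whether the difference with doxycycline is larger under the Bmi1 hairpin than under the control hairpin. In the limma fit 2 members (1.74%) passed, both lower. Of all probe sets at the floor 1.14% were called lower and 0.221% higher (0.463% and 0.102% of all those tested), so the member share was near that at the floor. At an unadjusted p under 0.05, 32 members were lower. TMEM106B, on the same probe set as above, differed by -0.55 ± 0.11 (SE, adjusted p = 0.00453) and OTUD6B by -0.78 ± 0.18 (SE, adjusted p = 0.0201). The median member difference was -0.17 against 0.01 over the probe sets at the floor, and 92 of 115 were below 0. The spread again came from all 14 groups, those of the rule included. The number called ran from 0 to 5 over the settings, with 0 in the fit to only the groups compared. It was 1 without dosed replicate 1 or undosed replicate 3 of Bmi1-shRNA, or without replicate 3 of either Ctl-shRNA group, and 4 without dosed Ctl-shRNA replicate 1. OTUD6B lost its call in 5 of the 12 fits that left out 1 array.

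Doxycycline in the Ctl-shRNA line called no member. At 24 h 0 passed in the limma fit, with 2 lower and 1 higher at an unadjusted p under 0.05, and 0.0237% of the probe sets at the floor were called lower and 0% higher (0.0114% and 0.00284% of all those tested). At 32 h 0 passed, with 8 lower and 1 higher unadjusted, and the background was 0.0158% lower and 0% higher at the floor (0.00851% and 0% of all those tested). The median member differences were 0.01 and -0.03 on the log2 scale. The 48 h ratio in this line was bounded by the rule.

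Time in culture was read in the Ctl-shRNA line, averaged over both doses. From 24 to 48 h 5 probe sets of 4 genes rose, 4.35% of the members against 1.54% of the probe sets at the floor and 0.752% of all those tested. Another 2 fell, 1.74% against 1.38% and 0.568%. Those that rose were LTF, which encodes lactoferrin, by 0.68 (adjusted p = 0.00257), C3AR1 by 0.66 (adjusted p = 0.000138), both KMO probe sets by 0.49 and 0.34, and DUSP22 by 0.27. Of these calls the smaller KMO one was lost in 9 of the 12 fits that left out 1 array and the DUSP22 one in 1. MT1H fell by 0.44 (adjusted p = 0.00146) and TMED4 by 0.29 (adjusted p = 0.0489), without the Bmi1 hairpin, and the TMED4 call was lost in 11 of the 12. The median member difference was -0.01. From 0 to 24 h without doxycycline 1 member fell, TMEM106B on another of its member probe sets, by 0.41 (adjusted p = 0.00255), against 0.925% of the probe sets at the floor and 0.389% of all those tested, and 0 rose, against 1.11% and 0.536%, with 18 lower and 11 higher at an unadjusted p under 0.05.

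The undosed lines also differed in the level of some members. The Ctl-shRNA over Bmi1-shRNA ratio at 32 h had a median of 0.978 and lay within a factor of 4/3 either way in 83 of the 115. It was lowest for C3AR1, at 0.304, and highest for MAGEH1, at 1.73. In 8 members the mean undosed signal of the Ctl-shRNA line was below 100, so a lower signal there is harder to see.

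Few members belonged to the pathway lists, which held 1256 symbols in 30 lists. The 5 that did were TUFM, POP1, SEC11C, AURKA and ATP6V0E1. At 32 h, reading each gene by its brightest probe set, the mitosis list had 3 of 71 genes lower (AURKA, KIF2C and KIF4A), the list of translocation and glycosylation in the endoplasmic reticulum 2 of 63 (PIGA and PDIA4), and the lysosome and autophagy list 2 of 48 (ATP6V0E1 and UVRAG). Over all 14705 genes read this way 1.49% were lower and 0.347% higher. The brightest AURKA and ATP6V0E1 probe sets were not members, with 24 h ratios of 0.816 and 0.664. The ATP6V0E1 member probe set did not pass at 32 h. In ribosome biogenesis 0 of 71 passed in the limma fit, with 7 lower and 2 higher at an unadjusted p under 0.05, and in mitochondrial gene expression 0 of 40, with 3 lower and 3 higher. The medians of these 5 lists lay between -0.03 and 0.02 on the log2 scale, close to that over all probe sets at the floor.

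Promoters of the members were searched for 9 short motifs on both strands, and the comparisons below are with the genes at the floor. The cyclic AMP response core TGACGT was in 22.5% of the 89 member genes, counting a gene when any of its listed promoters held it, against 15.5% of the genes at the floor counted alike and 7.98% of all promoters counted singly. The GC box GGGCGG, at 78.7% against 78.9%, and the ETS core CCGGAA, at 38.2% against 39.4%, were as frequent as in the genes at the floor, and CCAAT was less so, at 36.0% against 44.6%, close to its 34.6% of all promoters. The E-box CACGTG stood at 15.7% against 13.8%, TGCGCA at 15.7% against 18.3%, AAGATGG at 12.4% against 11.1%, GGCGGGA at 34.8% against 31.5% and TGATGNAA at 2.25% against 2.73%. The stretches before 3 members, from RefSeq GRCh38.p14, show such matches in capitals: TGACGT in SLC35F5 (a nucleotide sugar transporter family member with a 48 h ratio of 0.724, minus strand, chr2:113756643-113756742), where the 2 strands overlap, and in PTPRK (minus strand, chr6:128520600-128520699), and CCGGAA in HMGN4 (plus strand, chr6:26538266-26538365).
SLC35F5: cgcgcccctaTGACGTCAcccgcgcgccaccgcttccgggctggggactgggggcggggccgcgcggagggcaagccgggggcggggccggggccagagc
PTPRK: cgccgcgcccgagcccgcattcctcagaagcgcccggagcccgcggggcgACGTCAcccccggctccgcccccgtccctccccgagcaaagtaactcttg
HMGN4: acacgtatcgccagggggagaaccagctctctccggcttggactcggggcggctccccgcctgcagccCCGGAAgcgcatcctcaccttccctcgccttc
A match describes these letters only.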

How the data were processed

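Each of the 42 RNA samples was hybridized to 1 Affymetrix U133 Plus 2 array. The deposited values are MAS5 signals, linear intensities per probe set; MAS5 is named in the submitters' processing notes and its version is not given in the sources used here. The mean signal after trimming was 149 to 150 on every array. Arrays have no read depth, and 3 per group limit the precision. Of 54675 probe sets 62 array controls were left out, and gene symbols came from the platform annotation.

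Ratios are of group means of signal. For the tests, log2(signal + 5.4) was used, where 5.4 is the 25th percentile of the values, for the 35235 probe sets that reached the array median on at least 3 arrays, all 115 members among them. limma 3.58.1 in R 4.3.3 fitted 14 group means with an intensity trend (28 residual and 8.41 prior degrees of freedom), two-sided, with Benjamini-Hochberg adjustment over all 35235 and a threshold of 0.05. The fit was tested on simulated data. The members and gene lists were chosen with earlier results of these data known. Genes were named by rule: the 12 lowest 48 h ratios, the 8 brightest, the 10 smallest adjusted p-values and 3 highest ratios at 32 h, those called elsewhere, those with several probe sets, list members and those at the bounds. The others named were chosen after their values were seen. Alternatives were another pseudocount, quantile normalization, other filters, the brightest probe set per gene, no trend, only the groups compared, a replicate block and leaving out each array. Replicate numbers are shared between groups with no stated pairing.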

Additional observations from a re-analysis of the deposited data

Results flagged for a closer look

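OTUD6B and TMEM106B had a doxycycline effect at 32 h that differed between the lines by the interaction test of the limma fit. For OTUD6B the Bmi1-shRNA effect minus the Ctl-shRNA effect was -0.7778 on the log2 scale, and for TMEM106B, on its member probe set with the lowest 48 h ratio, it was -0.5524. The 2 other TMEM106B member probe sets did not pass this test. A fit to only the groups compared called 0 members, and OTUD6B lost its call in 5 of the 12 fits that left out 1 array.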

How the results depend on the processing

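Of 329 recomputed summaries 276 stayed near their main value, which did not require the same sign. The small median for 48 against 24 h changed sign, to 0.0037, without undosed Ctl-shRNA replicate 3 of 48 h. No member called in the main fit reversed in that comparison, and members not called were not checked for this. Counts are of members called, then of all probe sets called. A fit to only the groups compared gave 4 and 220 for doxycycline at 32 h in the Bmi1-shRNA line (19 and 486), 0 and 94 for the difference between lines (2 and 199), 3 and 1 in all for doxycycline in the Ctl-shRNA line at 24 and 32 h (5 and 3), 4 and 196 for 48 against 24 h (7 and 465), and 7 and 883 for 24 against 0 h (1 and 326). The brightest probe set per gene gave 322 in all at 32 h, 1 member for the difference, 7 in all for Ctl-shRNA at 32 h, a median of 0.0117 for 48 against 24 h (main -0.0097) and 210 in all for 24 against 0 h, with fewer features tested. The filter at the 75th percentile gave 5 members for the difference, 5 in all for Ctl-shRNA at 32 h, and 2 and 548 for 24 against 0 h. Without the intensity trend 1 member was left for the difference and 3 in all for Ctl-shRNA at 24 h. Quantile normalization gave a median difference between lines of -0.20 (main -0.17) and 8 in all for Ctl-shRNA at 32 h. The causes of these moves were otherwise not tested.

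Leaving out 1 array gave 10 to 22 members and 342 to 477 probe sets at 32 h, with a median of -0.26 to -0.20. For the difference it gave 1 to 4 and 160 to 209, with a median of -0.20 to -0.16, and for Ctl-shRNA 0 members with 3 to 6 in all at 24 h (median 0.0040 to 0.0092) and 2 to 5 at 32 h (median -0.05 to -0.02). It gave 5 to 6 members and 264 to 486 in all for 48 against 24 h (median -0.0339 to 0.0037), and 1 to 2 and 169 to 228 for 24 against 0 h (median -0.047 to -0.0258). The rule kept 104 to 165 probe sets, 109 after quantile normalization (92 shared with the 115) and 119 with geometric means (111 shared), so membership near the bounds moved.

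With the replicate number as a block, 18 members and 479 probe sets were called at 32 h and 2 and 205 for the difference. Deviations of same-numbered arrays correlated at a mean of 0.0067, so the numbers were not taken as pairs. Faint probe sets limit what can be seen: 95 of the 210 other probe sets of the members reached the floor.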
